A study of Mus musculus with 9 samples.

Results

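Metallothioneins and genes of zinc homeostasis were examined in cultured mouse heart cells, with 8 genes taken by name from the 55401 genes of the count table. They were the metallothionein genes Mt1, Mt2 and Mt3, the transcription factor gene Mtf1, the zinc exporter gene Slc30a1 and the zinc importer genes Slc39a1, Slc39a10 and Slc39a14. The genes were taken by name and not by a rule on their values, but with earlier results of these data known. All 8 were among the 16762 genes with enough counts to be tested. RNA-seq was performed on primary neonatal ventricular myocytes of wild-type C57BL/6J mice, isolated at 1 day of age, in 3 groups of 3 libraries. The Control group was kept in normal oxygen in complete DMEM, which contains serum. The Hypoxia group was washed, moved to DMEM lacking both glucose and serum, and held for 6 h in a closed chamber with an AnaeroPack-MIC system, which takes up oxygen. The Hypoxia+rSRGN group was treated in the same way for 6 h with recombinant serglycin (rSRGN), a proteoglycan of secretory granules, in the medium. Its dose is not given in the sources used here. Both hypoxic groups thus differed from Control in oxygen, glucose and serum at once, and the share of each in a difference from Control cannot be told apart. The labels do not say whether the 3 libraries of a group came from separate isolations, so the p-values measure the spread between these samples, which may be technical.

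The libraries held 21669017 to 22781557 counted fragments in Control, 16583985 to 18148474 in Hypoxia and 16640239 to 20826701 in Hypoxia+rSRGN. All 12 cardiomyocyte markers examined were detected in every group, and their summed level was 45940 to 56440 TMM-scaled CPM (counts scaled to the library total) in Control, 3931 to 6082 in Hypoxia and 7782 to 8360 in Hypoxia+rSRGN. The 10 fibroblast markers summed to 8989 to 10580 CPM, 17860 to 20630 CPM and 19700 to 20320 CPM in the same order of groups, so the cultures also held fibroblast RNA. The 10 macrophage markers fell from 232.2 to 248.7 CPM in Control to 25.3 to 29.0 CPM in Hypoxia and stood at 30.0 to 35.5 CPM in Hypoxia+rSRGN, and the 8 endothelial markers summed to 73.3 to 103.5 CPM, 49.9 to 65.1 CPM and 52.2 to 66.8 CPM. No marker was at 0 in any group. The 2 mitochondrial rRNA genes, summed to 2010 to 2500 CPM in Control, 23300 to 25430 CPM in Hypoxia and 22460 to 26490 CPM in Hypoxia+rSRGN. In such bulk samples fewer cells of a type and less RNA per cell cannot be told apart, and the part of these shifts in the results for the zinc genes was not tested.

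Zinc is a cofactor or structural ion of a large share of cellular proteins, and its free concentration in the cytosol is kept very low. Metallothioneins are small proteins rich in cysteine that bind zinc and copper through their thiol groups and release them again, and in the heart they are known as scavengers of reactive oxygen species. When zinc rises, the zinc finger protein MTF1 binds metal response elements and drives transcription of Mt1, Mt2 and Slc30a1. Transporters of the SLC30 (ZnT) family move zinc out of the cytosol, and those of the SLC39 (ZIP) family move it in. Metallothionein genes are also known to respond to glucocorticoids, hypoxia and inflammatory signals.

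The 3 metallothionein genes lie on the plus strand of chromosome 8 (GRCm38) within 27721 bases, in the order Mt3 (chr8:94152607-94154146), Mt2 (chr8:94172664-94173568) and Mt1 (chr8:94179082-94180327). Mt2 ends 5513 bases before Mt1 starts, and 18517 bases separate Mt3 from Mt2. Their coding sequences are shown because the binding property of the family, the cysteines, can be read from them, and because they show how far apart the genes are for a sequencing read. Codons for cysteine are in capitals, and each sequence was taken from the spliced GENCODE transcript numbered 201 of its gene, which has its coding sequence on 3 exons (chr8:94179311-94180193 for Mt1, chr8:94172848-94173427 for Mt2 and chr8:94152800-94154010 for Mt3).
Mt1: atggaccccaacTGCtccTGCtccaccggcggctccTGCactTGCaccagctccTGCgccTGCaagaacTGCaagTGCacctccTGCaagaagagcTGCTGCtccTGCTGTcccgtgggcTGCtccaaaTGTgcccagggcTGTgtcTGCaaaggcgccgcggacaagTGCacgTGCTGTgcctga
Mt2: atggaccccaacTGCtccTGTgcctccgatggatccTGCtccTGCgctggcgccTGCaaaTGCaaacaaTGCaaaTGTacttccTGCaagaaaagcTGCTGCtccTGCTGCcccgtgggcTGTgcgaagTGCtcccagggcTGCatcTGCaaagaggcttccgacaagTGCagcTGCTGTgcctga
Mt3: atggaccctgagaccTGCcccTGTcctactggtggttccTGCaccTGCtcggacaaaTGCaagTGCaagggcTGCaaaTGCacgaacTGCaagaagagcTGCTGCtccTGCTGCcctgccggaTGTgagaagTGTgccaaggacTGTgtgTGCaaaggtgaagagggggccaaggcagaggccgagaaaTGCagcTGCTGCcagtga
Of the 61 codons of Mt1 and of Mt2, 20 encode cysteine (32.8%), as do 20 of the 68 codons of Mt3 (29.4%). Mt1 and Mt2 share 148 of 186 coding bases (79.6%), and their longest identical run has 20 bases. Mt3 shares 65.2% of aligned positions with Mt1 and 67.6% with Mt2, with longest identical runs of 27 and 20 bases. No run of 50 bases of the annotated Mt1 or Mt3 transcripts occurs in a transcript of another gene.

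After 6 h of hypoxia, 5 of the 8 genes passed the test against Control (adjusted p below 0.05 in edgeR's quasi-likelihood test and a fold change of at least 1.5), and they did not move in one direction. Mt1 and Mt2 were higher and Mt3, Slc39a10 and Slc39a14 were lower, while Mtf1, Slc30a1 and Slc39a1 did not pass. Across all tested genes 51.6% passed in this comparison, 26.4% higher and 25.1% lower, so passing was common in the table as a whole. The median log2 fold change was -0.27 over the 8 genes and 0.05 over all tested genes.

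Addition of rSRGN to hypoxic cultures was followed by a change past both thresholds in 1 of the 8 genes, the zinc exporter gene Slc30a1, which was higher than in Hypoxia. Of all tested genes 3.13% passed in this comparison, 2.27% higher and 0.859% lower. The median log2 difference was 0.33 over the 8 genes and -0.03 over all tested genes. Slc39a10 and Slc39a14 had adjusted p-values below 0.05 with folds under 1.5, both higher with rSRGN. Against Control, Hypoxia+rSRGN had 3 higher genes (Mt1, Mt2 and Slc30a1) and 1 lower gene (Mt3) among the 8. The background there was 48.8% of tested genes, 24.1% higher and 24.7% lower. These comparisons share libraries in pairs, so their values are given side by side and not as separate evidence.

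**Figure D1:**
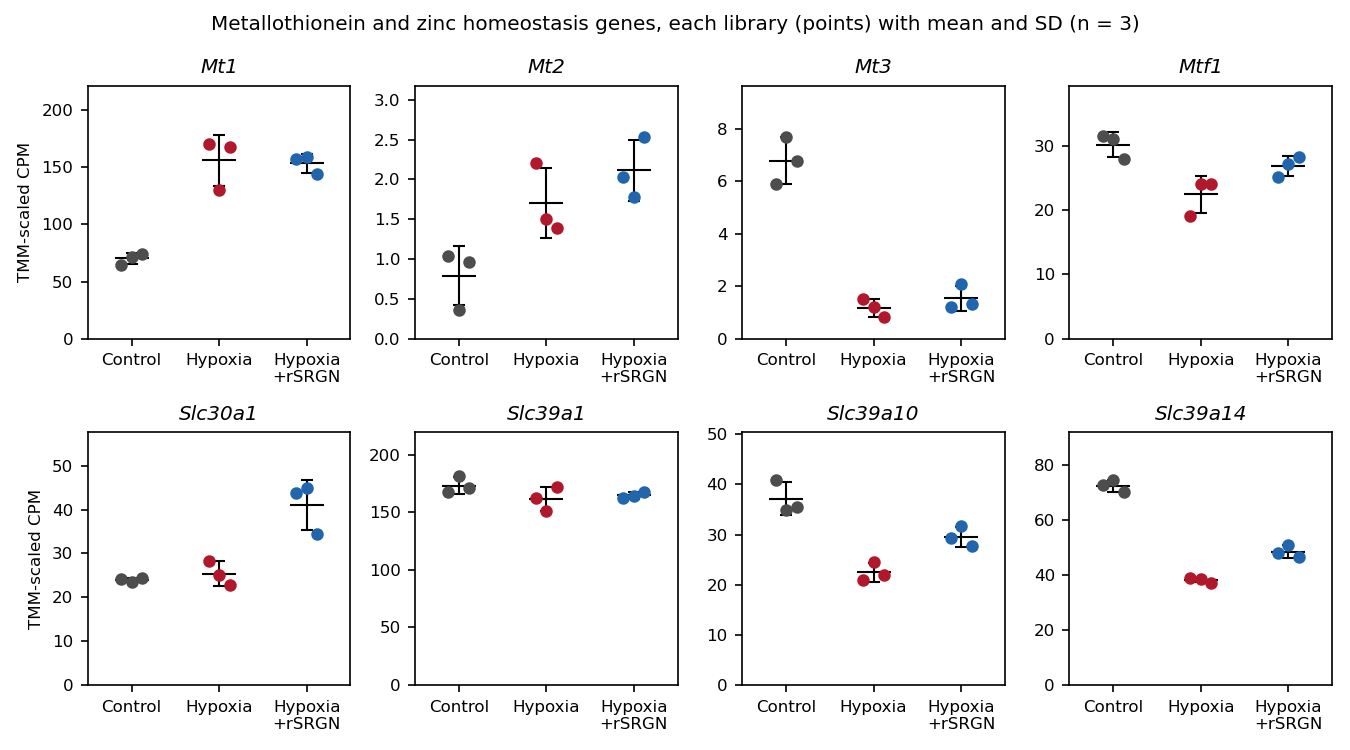
TMM-scaled CPM (vertical axes from 0, a separate scale for each gene) of the 8 zinc genes in the 9 libraries, by group. Points are libraries, and bars give the mean and SD of 3. Mt1 sat between 64.4 and 74.4 CPM in Control and between 130.1 and 170.7 CPM in Hypoxia, and Slc30a1 was raised in the Hypoxia+rSRGN group, at 34.4 to 44.9 CPM.

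Mt1 encodes the most widely expressed metallothionein. Its level was 64.4, 71.8 and 74.4 CPM in the Control libraries, 170.7, 130.1 and 167.7 CPM in the Hypoxia libraries and 157.2, 159.3 and 144.0 CPM in the Hypoxia+rSRGN libraries. Every hypoxic library, with or without rSRGN, lay above every Control library, and the groups with and without rSRGN overlapped. The mean rose from 70.2 ± 5.17 CPM in Control to 156.2 ± 22.6 CPM in Hypoxia (SD, n = 3), a log2 fold change of 1.15 ± 0.092 (SE, adjusted p = 2.06e-10) or 2.23-fold. Hypoxia+rSRGN, at 153.5 ± 8.27 CPM, exceeded Control by 1.13 on the log2 scale (adjusted p = 3.37e-10). Between the hypoxic groups the log2 difference was -0.03, with a 95% interval of -0.21 to 0.16 (adjusted p = 0.893). Hypoxia replicate 2 had the lowest Mt1 of its group, and when each library was left out in turn the rise over Control lay between 1.08 and 1.27.

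Mt2 encodes the other broadly expressed isoform, which is usually regulated together with Mt1. Only 23, 8 and 20 fragments were counted for it in Control, 41, 26 and 24 in Hypoxia, and 34, 37 and 48 in Hypoxia+rSRGN, or 0.361 to 1.03 CPM, 1.39 to 2.20 CPM and 1.78 to 2.54 CPM. Control lay below both hypoxic groups without overlap. Of the 588 exon bases of Mt2, 432 (73.5%) also lie in exons of Gm45774, an antisense gene, and the counting used no strand, so a fragment within the shared bases could be assigned to either gene and was by default left out. The level of Mt2 is therefore understated, and the RNA of the pair cannot be told apart in the shared bases. Gm45774 itself had 7, 3 and 0 counts in Control, 13, 10 and 7 in Hypoxia and 17, 21 and 17 in Hypoxia+rSRGN. With this limit, Mt2 was higher in Hypoxia than in Control by 1.11 ± 0.393 on the log2 scale (adjusted p = 0.0156), and higher in Hypoxia+rSRGN than in Control by 1.42 (adjusted p = 0.00252). The call in Hypoxia was lost without Control replicate 2, at 0.74 (adjusted p = 0.0986), and without Hypoxia replicate 1, at 0.88 (adjusted p = 0.0817). Between the hypoxic groups the difference was 0.31, with an interval of -0.44 to 1.06.

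Mt1 made up 98.4%, 99.5% and 98.7% of the summed Mt1 and Mt2 counts in Control, 98.7%, 98.9% and 99.2% in Hypoxia, and 98.7%, 98.9% and 98.3% in Hypoxia+rSRGN. The Wilson 95% intervals of these shares ran from 97.6% at the lowest to 99.7% at the highest, for counting error only. Because Mt2 fragments were lost to the antisense overlap, the share describes the counts and is no ratio of the 2 transcripts. It differed by 0.0414 percentage points between Hypoxia and Control (exact permutation test, two-sided, p = 0.9), by -0.291 between the hypoxic groups (exact p = 0.5) and by -0.249 between Hypoxia+rSRGN and Control (exact p = 0.7). All 3 adjusted values were 0.9, and 3 libraries against 3 cannot give a p under 0.1.

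Mt3, a metallothionein best known from the brain, went the other way. It had 131, 170 and 140 counts in Control, 28, 21 and 14 in Hypoxia and 20, 43 and 25 in Hypoxia+rSRGN, or 5.89, 7.68 and 6.76 CPM, 1.504, 1.21 and 0.811 CPM, and 1.19, 2.07 and 1.32 CPM. All 6 hypoxic libraries were below the 3 Control libraries. Mt3 fell by 2.51 on the log2 scale in Hypoxia (SE 0.273, adjusted p = 3.10e-08), to 0.175 times the Control level, and fell by 2.13 in Hypoxia+rSRGN against Control (adjusted p = 2.17e-07). With rSRGN it was 0.38 above Hypoxia, with an interval of -0.26 to 1.03 (adjusted p = 0.446). In the same comparison, in which 25.1% of all tested genes were lower past both thresholds, so were 12 of 12 cardiomyocyte markers (median log2 fold change -3.70), 9 of 10 macrophage markers (median -3.89) and 6 of 8 endothelial markers (median -1.08). Their part in the fall of Mt3 was not tested. Mt4, the remaining mouse metallothionein gene and one known from squamous epithelium, had 0 counts in all 9 libraries. There, 3 counts would correspond to 0.132 to 0.181 CPM before TMM scaling.

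**Figure D2:**
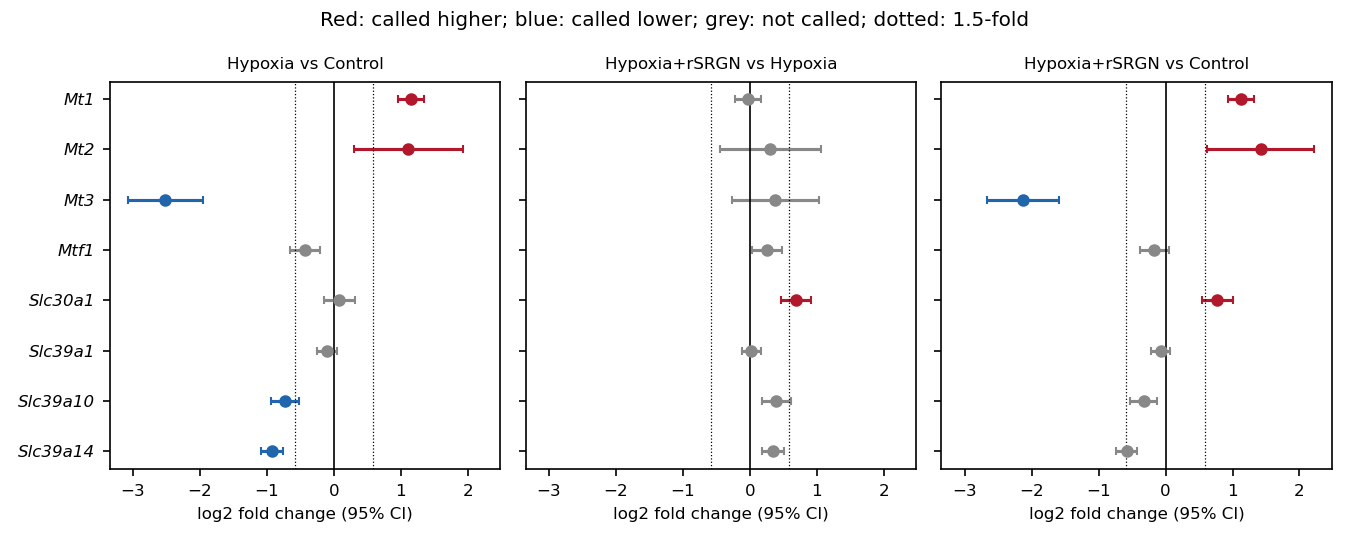
Log2 fold changes (horizontal axes) of the 8 zinc genes in the 3 comparisons, with 95% confidence intervals. Red and blue points passed the adjusted p of 0.05 and the fold of 1.5 (dotted lines), higher and lower, and grey points did not. Slc30a1 is the gene that passed with rSRGN, at 0.69, and Mt3 had the largest fall with hypoxia among the 8, at -2.51.

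Mtf1 (chr4:124802104-124849800, plus strand) encodes the metal-sensing transcription factor itself. Its levels were 31.5, 31.2 and 28.0 CPM in Control, 19.1, 24.1 and 24.2 CPM in Hypoxia and 25.1, 27.2 and 28.3 CPM in Hypoxia+rSRGN. Hypoxia lay below Control and below Hypoxia+rSRGN without overlap. The difference from Control was -0.43 ± 0.106 on the log2 scale (adjusted p = 0.00105), under the fold limit, and the difference between the hypoxic groups was 0.26, with an interval of 0.04 to 0.48 and an adjusted p of 0.1. Of its 8907 exon bases, 721 (8.09%) are shared with 1110065P20Rik on the opposite strand.

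Slc30a1 (chr1:191906767-191913247, plus strand) encodes ZnT1, the zinc exporter of the plasma membrane. Control libraries had 24.2, 23.4 and 24.4 CPM and Hypoxia libraries 28.4, 25.1 and 22.8 CPM, which overlapped. In Hypoxia+rSRGN the levels were 43.8, 44.9 and 34.4 CPM, so that the lowest of these stood above the highest of the other 6. Slc30a1 was 0.69 ± 0.110 higher on the log2 scale with rSRGN than in Hypoxia (adjusted p = 2.89e-04), or 1.62-fold, and 0.77 higher than in Control (adjusted p = 1.67e-06). Hypoxia alone differed from Control by 0.08, with an interval of -0.15 to 0.31. Leaving out single libraries kept the rSRGN difference between 0.62 and 0.81. The antisense gene 1700034H15Rik shares 468 of the 5244 exon bases (8.92%), and it had 6 to 13 counts in Control, 15 to 20 in Hypoxia and 13 to 26 in Hypoxia+rSRGN, few beside the 393 to 932 counts of Slc30a1. In the same comparison 11 of 12 cardiomyocyte markers were higher with rSRGN, with a median log2 difference of 0.78, beside 2.27% of all tested genes that were higher and a median of -0.03 over them. Their part in the Slc30a1 difference was not tested.

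The importer gene Slc39a14 (chr14:70303469-70351425, minus strand) encodes ZIP14, which carries zinc, iron and manganese across the plasma membrane. It had 72.9, 74.6 and 70.3 CPM in Control, 38.8, 38.7 and 37.2 CPM in Hypoxia, and 48.1, 51.1 and 46.7 CPM in Hypoxia+rSRGN. The 3 groups were fully separated, with the rSRGN libraries between the others. Slc39a14 fell by 0.92 in Hypoxia (SE 0.077, adjusted p = 4.06e-10), to 0.527 times Control. With rSRGN it was 0.35 ± 0.078 above Hypoxia (adjusted p = 0.00420), a fold of 1.27 and so under the limit. It remained -0.58 from Control (adjusted p = 6.21e-07), just short of 1.5-fold.

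Slc39a10 (chr1:46807544-46892852, minus strand) encodes ZIP10, another importer at the cell surface. Its levels of 40.9, 35.0 and 35.5 CPM in Control, 20.8, 24.6 and 21.95 CPM in Hypoxia and 29.4, 31.7 and 27.7 CPM in Hypoxia+rSRGN had the same order of groups as Slc39a14 and again no overlap. The fall in Hypoxia was -0.73 ± 0.102 on the log2 scale (adjusted p = 1.43e-06). The difference with rSRGN was 0.40 ± 0.103 (adjusted p = 0.0107), a fold of 1.32, and Hypoxia+rSRGN differed from Control by -0.33 (adjusted p = 0.00616).

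Slc39a1 (chr3:90248172-90253612, plus strand) encodes ZIP1, an importer present in most tissues. It showed 167.7, 181.2 and 170.8 CPM in Control, 162.4, 151.0 and 171.5 CPM in Hypoxia and 162.1, 164.1 and 167.5 CPM in Hypoxia+rSRGN. The group means lay within 161.6 to 173.2 CPM. The log2 differences were -0.10 for Hypoxia against Control (interval -0.25 to 0.05), 0.03 for Hypoxia+rSRGN against Hypoxia (interval -0.12 to 0.17) and -0.07 for Hypoxia+rSRGN against Control (interval -0.22 to 0.07), so each interval stayed inside the fold limit. Of the runs of 50 bases in Slc39a1 transcripts, 21.8% also occur in the pseudogene Slc39a1-ps, where fragments that map to both places could have been left out.

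Levels of different genes were compared per kilobase, with the merged exons of each gene as its length and, chosen after the values were seen, with the length of its GENCODE transcript numbered 201. Mt1 and Slc39a1 held the highest levels of the 8 in every group with either length. With merged exons, Mt1 stood at 56.4 ± 4.15 CPM per kilobase in Control, 125.4 ± 18.2 in Hypoxia and 123.2 ± 6.64 in Hypoxia+rSRGN, and Slc39a1 at 73.3 ± 2.99, 68.4 ± 4.33 and 69.6 ± 1.17. The merged exons of Mt1 cover its whole span of 1246 bases, introns included, which understates its level. With the 549 bases of its transcript, Mt1 stood at 127.9 ± 9.42, 284.5 ± 41.2 and 279.6 ± 15.1 CPM per kilobase, while the length and the levels of Slc39a1 stayed the same. Mt1 thus lay above Slc39a1 in both hypoxic groups with either length, and in Control above it with the transcript length and below it with merged exons, so the order of the pair in Control is not settled. Their ranges did not overlap in any group with either length.

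Below this pair, the place of Slc39a14 also depended on the length. With the 2098 bases of its transcript it came next in every group, at 34.6 CPM per kilobase in Control, 18.2 in Hypoxia and 23.2 in Hypoxia+rSRGN. With merged exons of 10550 bases it stood at 6.88, 3.63 and 4.61 CPM per kilobase, where its range overlapped that of Slc39a10 in every group (6.09, 3.68 and 4.85), that of Mt3 (6.36) in Control and that of Mt2 in Hypoxia. The means of the other 5 genes kept the same order with either length, but several neighbours overlapped. In Control that order was Mt3, Slc39a10 (6.09), Slc30a1 (4.57), Mtf1 (3.39) and Mt2 (1.34 CPM per kilobase of merged exons). In Hypoxia it was Slc30a1 (4.84), Slc39a10, Mt2 (2.89), Mtf1 (2.52) and Mt3 (1.10), and in Hypoxia+rSRGN Slc30a1 (7.83), Slc39a10, Mt2 (3.596), Mtf1 (3.02) and Mt3 (1.43). With either length Mt2 overlapped Mtf1 in both hypoxic groups and Slc39a10 in Hypoxia. Mt3 overlapped Slc39a10 in Control with merged exons, and both Mt2 and Mtf1 in the hypoxic groups with the transcript length, with which Slc30a1 also overlapped Slc39a10 in Hypoxia. The place of Mt2 is a lower limit.

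**Figure D3:**
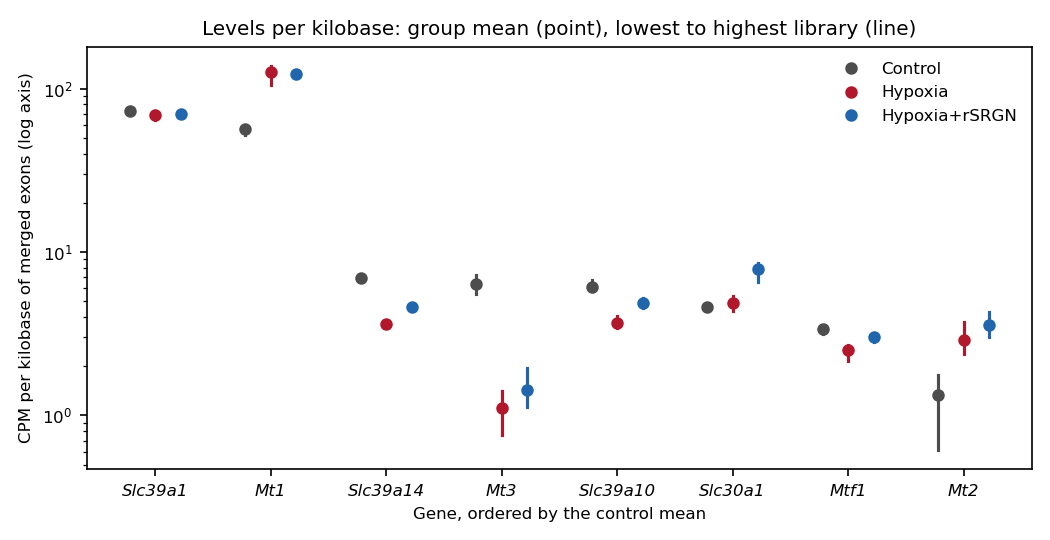
Mean level in CPM per kilobase of merged exons (vertical log axis) of the 8 zinc genes in each group, with lines from the lowest to the highest of 3 libraries. Slc39a1 and Mt1 lie far above the rest and Mt3 drops from 6.36 in Control to 1.10 in Hypoxia. Mt1 is understated on this scale (56.4 in Control, against 127.9 with the length of its transcript), so its place beside Slc39a1 in Control cannot be read from the plot.

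The stretch of 250 bases before the RefSeq start (GRCm38.p6) was searched for the core of the metal response element, TGCACNC or TGCGCNC, and for the core of the hypoxia response element, ACGTG or GCGTG, on both strands. Windows were matched for 7 of the 8 genes, all but Slc39a14. Those of Mt1, Mt2 and Slc30a1 are shown, as the genes higher in a hypoxic group, with matches to the metal response core on either strand in capitals, 5′ to 3′ on the plus strand (chr8:94178839-94179088, chr8:94172368-94172617 and chr1:191906531-191906780).
Mt1: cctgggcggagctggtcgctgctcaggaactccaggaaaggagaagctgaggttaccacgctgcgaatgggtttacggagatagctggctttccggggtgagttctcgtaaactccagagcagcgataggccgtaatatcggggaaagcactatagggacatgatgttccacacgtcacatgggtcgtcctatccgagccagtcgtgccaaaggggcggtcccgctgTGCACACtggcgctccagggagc
Mt2: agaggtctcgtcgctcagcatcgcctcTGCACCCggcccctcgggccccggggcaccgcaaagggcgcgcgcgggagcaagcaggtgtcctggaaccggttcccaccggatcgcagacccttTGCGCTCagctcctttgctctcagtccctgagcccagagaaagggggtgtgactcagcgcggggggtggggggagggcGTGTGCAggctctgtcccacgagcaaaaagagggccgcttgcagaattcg
Slc30a1: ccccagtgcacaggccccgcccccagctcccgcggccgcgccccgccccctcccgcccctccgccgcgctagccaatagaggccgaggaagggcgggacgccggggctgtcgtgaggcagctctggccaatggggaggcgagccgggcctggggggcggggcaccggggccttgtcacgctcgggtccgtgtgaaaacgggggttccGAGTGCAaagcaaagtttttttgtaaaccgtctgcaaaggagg
The Mt1 window held 1 match, from -23 to -17 counted from the RefSeq start. The Mt2 window held 3 and the Slc30a1 window 1, from -43 to -37. Bases past a window were not searched. The Mt1 window ends at 94179088, and the Mt1 coding sequence begins at 94179311. The Mt2 window ends at 94172617, before the gene start of 94172664 given above. The counts are therefore of these windows and not of whole promoters. The windows of Mt3, Mtf1 and Slc39a1 and both windows of Slc39a10 held 0. Some of these RefSeq windows lie away from the gene start used for counting. The Mtf1 window (chr4:124802299-124802548) lies inside the gene, which starts at 124802104. For Slc39a10, the window at chr1:46853619-46853868 lies inside the gene. Its other window, at chr1:46925777-46926026, lies upstream of the gene start at 46892852 on the minus strand. Of 32851 RefSeq windows of this length, 21.4% held at least 1 match and 1.26% at least 3. The hypoxia response core matched 2 times in the Mt1 window, 1 time each in those of Mt2, Slc30a1 and Slc39a1, and 0 times in the others, against 38.6% of all windows with at least 1 match and 16.7% with at least 2. In Mt2 the match to this core overlapped the metal response match nearest to the start. These matches are letters in a window and no measured binding.

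The remaining transporters of both families were described as a list of 20 genes, of which the main count filter kept 15 for testing. In Hypoxia against Control 2 were higher, 3 lower and 10 did not pass, with a median log2 fold change of 0.08, beside 51.6% of all tested genes that passed (26.4% higher, 25.1% lower) and a median of 0.05 over them. Among them were 2 importers with low counts that rose. Slc39a2 (ZIP2) went from 0.584 to 0.821 CPM in Control to 1.93 to 3.13 CPM in Hypoxia, a log2 fold change of 1.97 ± 0.339 (adjusted p = 2.31e-05), and Slc39a4 (ZIP4), the importer mutated in acrodermatitis enteropathica, from 0.677 to 1.59 CPM to 3.12 to 4.46 CPM, or 1.57 ± 0.303 (adjusted p = 8.65e-05). Both remained higher than Control with rSRGN, at 1.67 and 1.30. Slc39a2 shares 4.38% of its exon bases with Mettl17.

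The lower genes were Slc39a9, Slc30a9 and Slc30a2. Slc39a9 (ZIP9) dropped from 65.7, 67.6 and 72.6 CPM to 29.5, 31.2 and 29.2 CPM, and stood at 35.7, 39.4 and 33.7 CPM with rSRGN. Its log2 fold change in Hypoxia was -1.19 ± 0.087 (adjusted p = 3.86e-11). It shares 4.52% of its exon bases with Erh on the opposite strand. Slc30a9 (ZnT9), a transporter of mitochondria, was at 100.6, 97.2 and 108.4 CPM in Control and 63.5, 73.3 and 67.2 CPM in Hypoxia, a log2 fold change of -0.58 (SE 0.075, adjusted p = 4.32e-07) at the edge of the fold limit. It fell under that limit with scaling by library size alone (-0.52), with the replicate number as a block (-0.58) and without Control replicate 3 (-0.55), Hypoxia replicate 1 (-0.54) or Hypoxia replicate 3 (-0.58). Slc30a2 (ZnT2) had 31, 33 and 27 counts in Control and 8, 13 and 5 in Hypoxia (-1.5 ± 0.606, adjusted p = 0.0317), while the Hypoxia+rSRGN libraries scattered at 22, 2 and 3 counts. With counts this low, leaving out any Control library, Hypoxia replicate 1 or Hypoxia replicate 3 ended the call against Control (adjusted p = 0.0533 to 0.104).

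With rSRGN, 1 of the 15 transporters passed against Hypoxia, beside 3.13% of all tested genes, and like Slc30a1 it is an exporter. Slc30a4 (ZnT4), which loads zinc into endosomal and secretory vesicles, had 41.5, 38.7 and 38.3 CPM in Control, 38.2, 40.3 and 37.4 CPM in Hypoxia and 71.6, 71.1 and 60.4 CPM in Hypoxia+rSRGN. The groups without rSRGN overlapped and the group with it stood apart. Of its exon bases 2.37% are shared with 4930417H01Rik on the opposite strand, which had at most 6 counts in a library. The log2 difference was 0.81 ± 0.086 (adjusted p = 1.48e-05) between the hypoxic groups, 0.78 between Hypoxia+rSRGN and Control (adjusted p = 4.38e-08) and -0.03 between Hypoxia and Control (interval -0.21 to 0.15). Slc39a6 (ZIP6), an importer related to ZIP10, had 61.8, 59.8 and 59.4 CPM in Control, 76.7, 85.5 and 84.0 CPM in Hypoxia and 109.4, 109.7 and 104.7 CPM in Hypoxia+rSRGN. Its steps of 0.44 and 0.40 were each under the fold limit (adjusted p = 1.05e-05 and 7.83e-04), and together they made a difference of 0.84 from Control (adjusted p = 7.01e-10), which passed. The other 5 exporters tested differed between the hypoxic groups by -0.06 to 0.19 and did not pass.

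**Figure D4:**
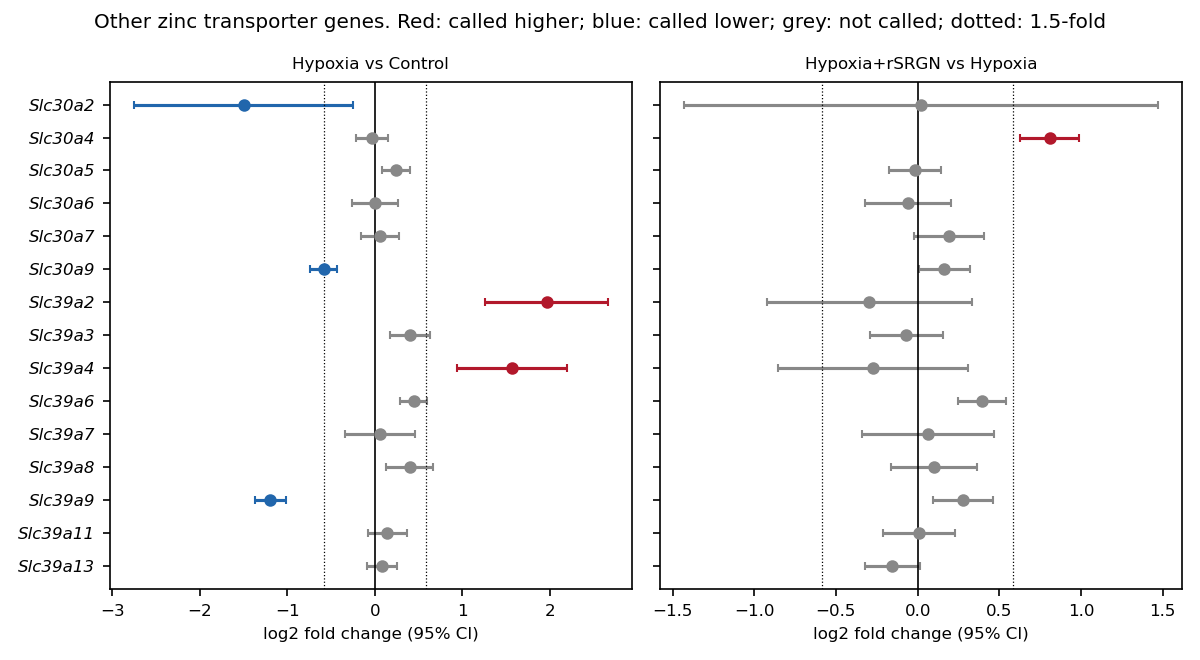
Log2 fold changes (horizontal axes, a separate scale in each panel) of the 15 tested zinc transporter genes other than the 8 genes of the main set, with 95% confidence intervals, for Hypoxia against Control and for Hypoxia+rSRGN against Hypoxia. Red and blue mark genes past both thresholds, higher and lower. Slc30a4, at 0.81, is the gene past both thresholds with rSRGN.

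The main count filter left out 5 of these transporter genes. With a filter of at least 1 count in total, 19 of the other transporters were tested, and 3 were higher and 3 lower in Hypoxia against Control. Of the 32730 genes then tested, 4863 were higher and 4827 lower. Among the 5 left out, Slc30a8, the zinc transporter of insulin granules, had 0 counts in all libraries. Slc30a10, a manganese exporter of the same family, had 0, 0 and 1 counts in Control, 4, 14 and 9 in Hypoxia and 8, 11 and 9 in Hypoxia+rSRGN, and 533 of its exon bases are shared with an antisense gene. Slc30a3, Slc39a5 and Slc39a12 had at most 15 counts in a library.

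Genes whose log2 CPM varied over the 9 libraries most like that of Mt1, Mt2 and Slc30a1 were sought among 9753 genes with a mean of at least 10 CPM. The libraries fall into 3 groups, so genes with a like order of group means score high, and the values of r are a description. Nearest to Mt1 were Cep295nl (r = 0.995), Meg3 (r = 0.995), a long noncoding RNA of an imprinted locus, and Cdr2l (r = 0.994), whose log2 fold changes in Hypoxia were 2.06, 1.45 and 0.91, and with rSRGN 0.06, -0.08 and -0.04. Nearest to Mt2 were 4930453N24Rik (r = 0.976), Banp (r = 0.958) and Adamts5 (r = 0.954), with the low counts of Mt2 behind each r. Nearest to Slc30a1 were Myo5a (r = 0.989), the gene of a myosin motor that carries vesicles, Tulp4 (r = 0.981) and Acap2 (r = 0.979), which differed between the hypoxic groups by 0.56, 0.28 and 0.47 and between Hypoxia and Control by 0.05, 0.07 and 0.0032.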

How the data were processed

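RNA-seq libraries of 3 Control, 3 Hypoxia and 3 Hypoxia+rSRGN samples of neonatal mouse ventricular myocytes were analysed, grouped by the sample labels. The authors deposited raw fragment counts per gene from poly(A)-enriched RNA. Per the file headers these were made with featureCounts 2.0.1, paired-end and on exons, with the GENCODE mouse release M25 annotation (GRCm38) and no strand option. Submitters' processing notes name HISAT2 and mm10. Genes that overlap, antisense genes and near-identical copies are therefore uncertain. All 9 count columns were used and 0 were left out.

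In edgeR 4.0.16 (R 4.3.3), filterByExpr left 16762 genes, libraries were scaled by TMM, and 1 model with the 3 group means was fitted to the 9 libraries. Contrasts were tested by quasi-likelihood F (glmQLFTest), and p-values were adjusted by Benjamini-Hochberg over those 16762 genes. Passing required both an adjusted p below 0.05 and at least a 1.5-fold difference. CPM are TMM-scaled, and per-kilobase levels use the exon length of the table, with the length of the GENCODE transcript numbered 201 as an alternative chosen after the data were seen. The standard error is the absolute log2 fold change divided by the square root of F. The step was tested on simulated data of 16762 genes with 200 changed 2-fold. For Hypoxia against Control it recovered 153 (76.5%), with 2 unchanged genes called. For Hypoxia+rSRGN against Hypoxia it recovered 148 (74%), with 5. All other genes were drawn without a group difference, while in the data 51.6% of tested genes passed for Hypoxia against Control. The simulation therefore does not show how scaling and false calls behave with so many changes. Pairs of replicates differed by more than sampling noise, at a chi-square per degree of freedom of 2.98 to 9.31. Libraries held 16583985 to 22781557 counted fragments, so that 3 counts correspond to 0.132 to 0.181 CPM before TMM scaling. Wilson intervals and count floors cover counting error only, while the intervals of log2 fold changes come from the fit and include the spread between libraries.

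The Mt1 share was compared with an exact permutation test over libraries. Coding sequences came from the GENCODE M21 transcripts (GRCm38) and upstream windows from RefSeq (GRCm38.p6). Alternatives were DESeq2 1.42.0, RLE scaling, library size alone, 2 other count filters, a fit of only the groups compared, no fold limit, a replicate block, and the omission of single libraries. The text names the 8 genes, the other Slc30a and Slc39a genes that passed in any comparison, the 2 largest rises and falls of the copper, iron and glucocorticoid lists in Hypoxia against Control at a mean of at least 1 CPM, and the 3 genes most like Mt1, Mt2 and Slc30a1. Slc30a10, Slc30a3, Slc30a8, Slc39a5, Slc39a12, Mt4, Atp7a, Ccs and Klf9 were named after their values were seen. The genes and lists were chosen with earlier results of these data known. Figures were drawn with matplotlib 3.10.9.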

Additional observations from a re-analysis of the deposited data

How the results depend on the processing

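Of 381 log2 fold changes of the 8 genes under an alternative, 369 kept their direction and their side of the thresholds. The number of the 8 genes that passed lay between 4 and 6 for Hypoxia against Control, 1 and 3 for Hypoxia+rSRGN against Hypoxia, and 3 and 6 for Hypoxia+rSRGN against Control. Over the same alternatives 6728 to 11876, 321 to 2790 and 6336 to 11503 of all genes passed. Without the fold limit, 3 of the 8 and 2790 of all genes passed with rSRGN against Hypoxia (525 with it). Of the other transporters, 9 then passed for Hypoxia against Control, 3 with rSRGN against Hypoxia, and 11 with rSRGN against Control, and of the 16762 genes tested 11876 passed in the first and 11503 in the last of these. When each library was left out in turn, all genes passing with rSRGN against Hypoxia ranged from 321 (without Hypoxia replicate 3) to 699. Slc39a14 passed with rSRGN against Control when genes needed only 1 count in total (-0.62), without Control replicate 3 (-0.61) and without Hypoxia+rSRGN replicate 2 (-0.62). The causes were not tested.

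Differences near 0 changed sign. Mt1 between the hypoxic groups was 0.0033 under DESeq2 and 0.0033 under RLE scaling, and with single libraries left out it ranged from -0.14 to 0.044. In the same comparison Slc39a1 ranged from -0.019 to 0.072 and Slc30a2 from -1.90 to 0.55 with single libraries left out, and Slc30a2 was -0.13 with the replicate block. In Hypoxia against Control, Slc30a1 ranged from -0.0040 to 0.15 with single libraries left out, and Slc30a4 was 0.035 with library size alone. The Mt1 share difference ranged from -0.188 to 0.351 percentage points in Hypoxia against Control and from -0.478 to 0.0608 with rSRGN against Control, when single libraries were left out.

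Same-numbered libraries did not deviate together (r of -0.037 to 0.021, and 1 of 9 libraries closest to its own number), so the numbers were not taken to pair samples. With the replicate number as a block, 5 of the 8 genes, 4 other transporters and 8550 of all genes passed for Hypoxia against Control. For rSRGN against Hypoxia these counts were 1, 1 and 495, and for rSRGN against Control 4, 6 and 8096. Genes with few counts, Mt2 first among the 8, are limited by depth.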

Other observations

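Genes of iron handling were also compared. Of the 9 tested, Hypoxia had 2 higher and 4 lower against Control, and the median of the 9 was -0.55 on the log2 scale, beside 51.6% of all tested genes that passed and a median of 0.05 over them. Tfrc, the transferrin receptor, had 257.2 to 305.7 CPM in Control and 16.3 to 21.7 CPM in Hypoxia (-3.89 ± 0.108, edgeR adjusted p = 5.34e-18), and with rSRGN it stood at 27.5 to 35.1 CPM, 0.71 above Hypoxia (adjusted p = 2.23e-04). Slc40a1, the iron exporter ferroportin, fell by 1.25 (adjusted p = 1.43e-08). The higher genes were Hmox1, which degrades haem (1.23, adjusted p = 1.26e-10), and Ftl1, the ferritin light chain (0.83, adjusted p = 1.55e-08). Tfrc was the only one of these 9 past both thresholds with rSRGN, beside 3.13% of all tested genes. Hmox1 was 0.42 higher (adjusted p = 0.00416) with a fold under 1.5. In Hypoxia against Control the marker medians were -3.70 (cardiomyocyte), -3.89 (macrophage), -1.08 (endothelial) and 0.90 (fibroblast). With rSRGN against Hypoxia they were 0.78, 0.33, 0.03 and 0.05. The part of these shifts in the differences of the iron genes was not tested.

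Of 9 tested copper genes 0 were higher and 2 lower in Hypoxia, where 26.4% and 25.1% of all tested genes were. One of the lower genes was Sco1, a copper chaperone of cytochrome c oxidase (-0.76, edgeR adjusted p = 1.27e-06). None of the 9 passed with rSRGN against Hypoxia, a comparison in which 3.13% of all tested genes passed. In that comparison the copper exporter gene Atp7a and Ccs, the copper chaperone of superoxide dismutase, differed in opposite directions with folds under 1.5, by 0.48 (adjusted p = 0.0118) and -0.34 (adjusted p = 0.0237). Of 6 genes known to respond to glucocorticoids, another stimulus of metallothionein genes, 2 were higher in Hypoxia against Control and 1 lower, beside the same shares of all tested genes. The higher genes were Sgk1 (0.96, adjusted p = 2.74e-07) and Per1 (0.83, adjusted p = 3.22e-06). The transcription factor gene Zbtb16 was lower, from 3.50 to 4.25 CPM in Control to 0.232 to 0.591 CPM in Hypoxia (-3.28, adjusted p = 5.06e-08). It was 1.39 higher with rSRGN than in Hypoxia (adjusted p = 0.0254), in a comparison where 2.27% of all tested genes were higher. This call was lost in the fit of only those groups (adjusted p = 0.0638) and without Hypoxia replicate 2 or 3 or Hypoxia+rSRGN replicate 1 or 2 (adjusted p = 0.0557 to 0.115). With folds under 1.5, Klf9 was 0.50 higher with rSRGN than in Hypoxia (adjusted p = 0.00280).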
